A study of Mus musculus with 23 samples.

Results

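A set of 8 transcripts of cholesterol synthesis and its control was followed in brown adipose tissue (BAT) of mice with and without a deletion of Mcu, the gene of the mitochondrial calcium uniporter, in Ucp1-expressing cells. The 8 genes were chosen by symbol: Srebf2, Insig1, Hmgcs1, Idi1, Fdft1, Sqle, Lss and Cyp51. All 8 were among the 14651 genes of the deposited expression table, and no gene was removed by a filter on low values. The series asked what loss of the uniporter does to the transcriptome of BAT at rest and in the cold. All animals were male C57BL/6 mice of 8 to 12 weeks that carried floxed Mcu on both alleles. Control mice, Mcu[fl/fl], had no Cre, and BAT-Mcu-KO mice, Mcu[fl/fl];Ucp1-Cre, carried Cre under the promoter of Ucp1, so that Mcu is removed only in cells that express Ucp1 and other cells of the same tissue piece keep the gene. Mice were kept at room temperature (RT) or housed singly at 4°C for 6 h. There were 6 control mice at RT, 5 control mice at 4°C, 6 BAT-Mcu-KO mice at RT and 6 BAT-Mcu-KO mice at 4°C, with 1 RNA-seq library per mouse. Mice at 4°C had no food unless otherwise stated and the labels do not give the feeding of the mice at RT, so cold and lack of food cannot be told apart in what follows.

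Cholesterol is built from acetyl-CoA through mevalonate, the isoprenoids, squalene and lanosterol. SREBP2, the product of Srebf2, is the main transcription factor of this pathway. It is made as a membrane protein of the endoplasmic reticulum and is carried by the escort protein SCAP to the Golgi, where proteases release its active part, when sterols are low. INSIG proteins hold SCAP in the endoplasmic reticulum when sterols are plentiful, and Insig1 is itself a target of SREBP2, as are the enzyme genes. In BAT, cold switches on heat production through UCP1, and lipid supply and lipid synthesis change with it.

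Recovered reads per mouse ranged from 7129271 to 21006347 (median 13602248), and mitochondrial transcripts took 23.1% to 38.1% of them. The label check held in every mouse. Mcu lay between 70.8 and 136 normalized counts in the 11 control mice and between 15.2 and 42.4 in the 12 BAT-Mcu-KO mice, and Ucp1 rose in the cold by 1.37 (SE 0.10) in control mice and by 1.47 (SE 0.10) in BAT-Mcu-KO mice on the log2 scale. A normalized count is the number of reads of a gene divided by the size factor of its library. The summed normalized count of 7 brown adipocyte markers was 179530 to 250160 at RT and 267739 to 325271 at 4°C. Its rise was not shared by all markers. In control mice 4 of the 7 rose, among them Ucp1, Elovl3 (2.55) and Pparg (0.51), while Cidea (-0.32) and Adipoq (-0.38) fell. In BAT-Mcu-KO mice 3 rose and 0 fell. Of all genes, 22.3% rose and 23.7% fell in control mice, and 21.4% and 21.9% in BAT-Mcu-KO mice. The sum of 7 skeletal muscle markers ranged from 7.47 to 45031, with 3 control mice at 4°C and 3 BAT-Mcu-KO mice at RT above 10000. Leaving out those 6 mice takes 3 of the 5 control mice at 4°C and 3 of the 6 BAT-Mcu-KO mice at RT. Fits without them thus rest on few mice in these groups. Calls of members that change in such a fit are given with each gene.

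The members lay on 5 chromosomes of the mouse genome (GRCm38, GENCODE M21). Srebf2 (chr15:82147181-82205379) and Sqle (chr15:59315077-59331192) shared chromosome 15, Hmgcs1 (chr13:119690379-119708260) and Idi1 (chr13:8885501-8892451) chromosome 13, and Insig1 (chr5:28071363-28078662) and Cyp51 (chr5:4081145-4104746) chromosome 5. Lss (chr10:76531588-76557138) and Fdft1 (chr14:63145150-63179578) lay alone. Fdft1 and Cyp51 are read from the minus strand and the other 6 from the plus strand. The study counted exonic reads irrespective of strand, so that reads from overlapping genes cannot be told apart where exons meet. This touches Fdft1, whose exons overlap those of the lysosomal protease gene Ctsb on the other strand, and Cyp51, whose exons overlap those of the scaffold gene Akap9. Of 4224 stretches of 25 bases in the exons of Fdft1, 34.1% lay in exons of another gene and 17.8% in exons of Ctsb, and of the stretches of Cyp51 3.35% lay in exons of Akap9. Idi1 shared 27.8% of its stretches with other genes, mostly with Gm13502, and Hmgcs1 shared 11.1% with Gm48342 on the other strand, so the counts of Fdft1, Idi1 and Hmgcs1 are less certain than those of the other members. Lss also has an exonic overlap on the other strand with 4930483K19Rik (2.70% of stretches), and Idi1 with Gm48574.

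Compared per kilobase of exon, the members spanned a wide range of levels. The length used was the union of the annotated exons of all transcripts of a gene, from 3093 bases for Insig1 to 10787 for Lss. Levels per kb and their order therefore depend on the annotation. In control mice at RT, the median normalized count per kb was 678 for Insig1, 409 for Hmgcs1, 392 for Fdft1, 55.4 for Cyp51, 41.8 for Lss, 27.4 for Srebf2, 26.4 for Sqle and 11.4 for Idi1. The ranges of Insig1, Hmgcs1 and Fdft1 overlapped each other. So did those of Lss and Srebf2, of Srebf2 and Sqle, and of Idi1 with both Srebf2 and Sqle, so that neighbours in these sets could not be ordered beyond their spread. In control mice at 4°C Fdft1 stood at 97.1 per kb, no longer beside Insig1 at 818 and Hmgcs1 at 359, and the medians of Sqle (42.4), Lss (40.7) and Srebf2 (36.3) could not be ordered, since their ranges overlapped. The Fdft1 range at 4°C, 71.5 to 157 per kb, did not reach that of Hmgcs1, 205 to 393.

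The 250 bases before the RefSeq transcription start are shown for 4 genes of the pathway: Srebf2 and Hsd17b7, which rose in the cold, Hmgcs1, which holds the sterol regulatory element searched, and Cyp51, whose cold call depended on the tool. Sqle and Fdft1 had no entry in the promoter table used. RefSeq and GENCODE place some starts differently, so that the windows of Srebf2, Cyp51 and Hsd17b7 reach into the GENCODE gene. They are printed on the sense strand of the gene from RefSeq (GRCm38.p6), with 2 motifs in capitals. One is the CCAAT box, the element bound by NF-Y, a partner of the SREBPs on sterol promoters, which reads ATTGG where it lies on the other strand. The other is a sterol regulatory element, searched as TCACNCCAC on both strands. Srebf2 is taken from chr15:82147019-82147268, Hmgcs1 from chr13:119690101-119690350, Cyp51 from chr5:4104698-4104947 and Hsd17b7, a late sterol reductase, from chr1:169969206-169969455, with Cyp51 and Hsd17b7 on the minus strand.
Srebf2: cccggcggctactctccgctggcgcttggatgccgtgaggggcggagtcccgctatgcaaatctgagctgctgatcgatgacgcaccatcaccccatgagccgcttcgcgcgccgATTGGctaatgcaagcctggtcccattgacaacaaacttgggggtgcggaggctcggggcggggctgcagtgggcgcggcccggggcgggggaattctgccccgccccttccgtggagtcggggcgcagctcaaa
Hmgcs1: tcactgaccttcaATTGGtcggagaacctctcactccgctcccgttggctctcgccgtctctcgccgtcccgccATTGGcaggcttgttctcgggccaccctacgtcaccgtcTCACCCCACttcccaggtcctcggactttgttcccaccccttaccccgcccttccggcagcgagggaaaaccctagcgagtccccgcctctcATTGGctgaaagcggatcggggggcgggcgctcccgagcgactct
Cyp51: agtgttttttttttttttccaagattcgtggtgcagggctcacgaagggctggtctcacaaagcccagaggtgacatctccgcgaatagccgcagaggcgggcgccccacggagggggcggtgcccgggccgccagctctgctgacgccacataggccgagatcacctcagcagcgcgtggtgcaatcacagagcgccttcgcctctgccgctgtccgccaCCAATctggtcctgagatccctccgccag
Hsd17b7: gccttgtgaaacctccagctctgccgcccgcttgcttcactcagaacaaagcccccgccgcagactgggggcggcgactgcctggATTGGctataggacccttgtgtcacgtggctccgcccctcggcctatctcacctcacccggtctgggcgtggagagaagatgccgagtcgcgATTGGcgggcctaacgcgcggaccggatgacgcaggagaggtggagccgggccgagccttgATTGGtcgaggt

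Hmgcs1 held 3 CCAAT boxes and the only TCACNCCAC match among the pathway genes, at base -137 from the start. Hsd17b7 held 3 CCAAT boxes, and Srebf2 and Cyp51 held 1 each, at bases -135 and -29. Of the 23 genes made up by the members and 15 further enzymes of the pathway, 19 had a promoter in the RefSeq table used, and 18 of these held a CCAAT box, including the 6 members with an entry. The same letters were in 39.77% of the promoters of the 9982 measured genes with an entry and in 33.85% of all 32851 promoters. TCACNCCAC was in 1.242% of the genes' promoters, and the cAMP response element TGACGTCA, in 3.015% of them, was in none of the 19. These matches describe the letters of the windows and were not tested for binding.

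In the cold, the 8 members did not move together. Sqle, the epoxidase that commits squalene to sterols, rose 2.11-fold in control mice, Srebf2 rose 1.49-fold, and Fdft1, the synthase that makes squalene just before that step, fell to 25.8% of its RT level. The same 3 genes changed in the same directions in BAT-Mcu-KO mice. Hmgcs1, Insig1, Idi1, Lss and Cyp51 did not pass the test in either genotype. The test was limma on log2(normalized count + 1) across all 23 mice, with Benjamini-Hochberg adjustment over all 14651 genes and a call at adjusted p under 0.05. Fold changes here are on that scale. Thus 3 of 8 members were called in control mice, 2 higher and 1 lower, where 46% of all genes were called, 22.3% higher and 23.7% lower. Scaling the libraries by their 75th percentile moved the median log2 fold change of the control mice over the table from -0.02 to -0.13 and the higher and lower calls from 3269 and 3466 to 2644 and 4281, and the 3 members kept their calls. In BAT-Mcu-KO mice 3 of 8 were called as well, against 43.3% of all genes, 21.4% higher and 21.9% lower, so the share of members that changed was near that of the table as a whole. Groups at RT and 4°C did not overlap for 2 members in control mice (25.2% of all genes) and for 1 in BAT-Mcu-KO mice (24.2%). The median log2 fold change of the 8 was 0.02 in control mice and -0.20 in BAT-Mcu-KO mice, beside -0.02 and -0.02 over all genes.

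**Figure D1:**
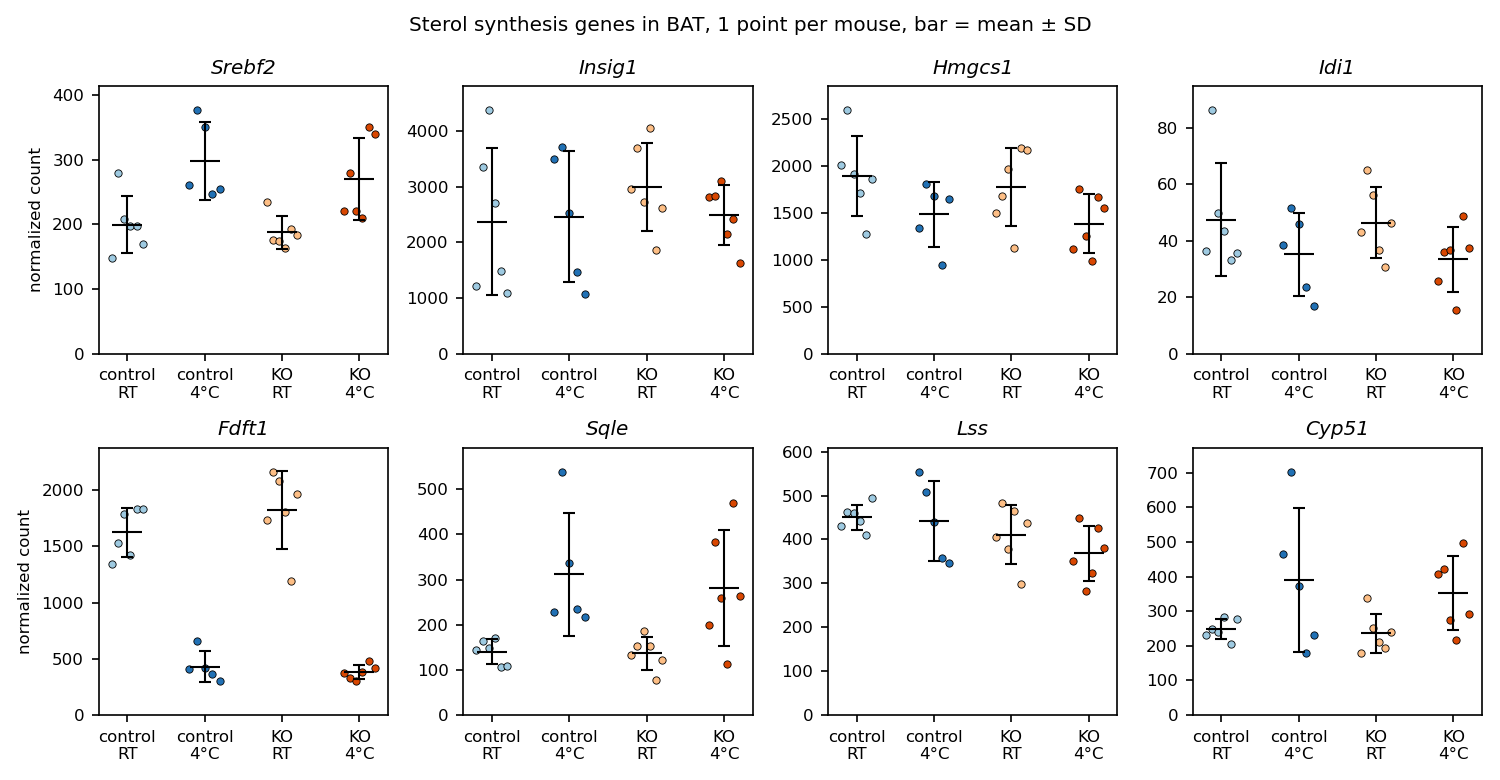
Normalized counts (y axis, linear from 0) of the 8 members in each mouse, in control and BAT-Mcu-KO (KO) mice at RT and 4°C; points are mice and bars are the mean ± SD of 5 or 6 mice. Fdft1 separates by temperature in both genotypes, Sqle and Srebf2 are higher at 4°C, and no panel separates by genotype.

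Among the regulators, Srebf2 itself was at 148, 197 and 279 normalized counts in control mice at RT (lowest, median and highest). At 4°C the 5 control mice were at 261, 376, 351, 247 and 254. The groups overlapped only through the single highest RT mouse, and Srebf2 rose by 0.58 (SE 0.16, 95% confidence interval 0.24 to 0.92, limma adjusted p = 0.00499). In BAT-Mcu-KO mice it went from 163, 180 and 235 at RT to 209, 250 and 350 at 4°C, a rise of 0.50 (SE 0.16, interval 0.18 to 0.82, limma adjusted p = 0.0111). The lowest 4°C mice lay within the RT range. Without the 6 mice of high muscle marker level the rise in BAT-Mcu-KO mice was 0.40 and no longer passed the test (limma adjusted p = 0.131). That in control mice, with 3 of the 5 mice at 4°C left out, was 0.63 (limma adjusted p = 0.0402).

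Insig1, which encodes the sterol-dependent anchor of SCAP, had the widest confidence intervals of the 8 members. In control mice it was at 1092, 2096 and 4372 at RT and at 3497, 3717, 2531, 1471 and 1072 at 4°C. The 4°C mice spanned nearly the whole RT range. The log2 fold change was 0.09 (interval -0.59 to 0.77, limma adjusted p = 0.845) in control mice and -0.25 (interval -0.89 to 0.40, limma adjusted p = 0.554) in BAT-Mcu-KO mice, where the values were 1869, 2841 and 4058 at RT and 1628, 2614 and 3106 at 4°C. Both intervals held rises as well as falls. The smallest change that would pass the test with this spread between mice was not tested.

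Of the early enzymes, Hmgcs1 makes HMG-CoA, a precursor of mevalonate, and Idi1 isomerizes the first isoprenoid. Hmgcs1 was at 1268, 1881 and 2588 in control mice at RT and at 1339, 1806, 1675, 942 and 1649 at 4°C. BAT-Mcu-KO mice were at 1123, 1821 and 2192 at RT and at 984.2, 1397 and 1746 at 4°C. Every 4°C value lay below the RT median of their genotype, 1 control and 2 BAT-Mcu-KO mice lay below the RT range, and the groups overlapped, with log2 fold changes of -0.35 in both genotypes (intervals -0.75 to 0.04 and -0.73 to 0.03, limma adjusted p = 0.136 and 0.128). Hmgcs1 passed the test under quantile normalization of the libraries (-0.54 and -0.52, limma adjusted p = 0.0224 and 0.0230) and, in BAT-Mcu-KO mice, without BAT-Mcu-KO RT replicate 4 (-0.47, limma adjusted p = 0.0357).

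Idi1 was the least abundant member, with 17 to 89 reads per mouse, so counting error weighs most here. It was at 33.1, 40.0 and 86.3 normalized counts in control mice at RT and at 38.4, 51.6, 46.0, 23.5 and 16.8 at 4°C. The BAT-Mcu-KO mice stood at 30.7, 44.8 and 65.1 at RT and at 15.5, 36.3 and 48.8 at 4°C. The groups overlapped in both genotypes, and the log2 fold changes of -0.45 (interval -1.08 to 0.18) and -0.50 (interval -1.10 to 0.10) did not pass the test (limma adjusted p = 0.236 and 0.172).

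Fdft1, the squalene synthase, was at 1346, 1658 and 1836 normalized counts in control mice at RT and at 411, 662, 414, 364 and 302 at 4°C. BAT-Mcu-KO mice had values of 1193, 1889 and 2163 at RT and at 304, 381 and 480 at 4°C. Every mouse at 4°C was below every mouse at RT by a wide margin in both genotypes. Fdft1 fell by 1.95 (SE 0.16, limma adjusted p = 5.52e-10) in control mice and by 2.25 (SE 0.16, limma adjusted p = 2.35e-11) in BAT-Mcu-KO mice on the log2 scale. The call held under every alternative tried, with log2 fold changes between -2.37 and -1.84. Its overlapping partner Ctsb, at a mean of 22500 normalized counts, had log2 fold changes of -0.24 (limma adjusted p = 0.103) and -0.28 (limma adjusted p = 0.0508).

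Sqle moved the other way. It was at 106, 146 and 171 normalized counts in control mice at RT and at 229, 539, 337, 235 and 218 at 4°C, so that the groups did not overlap. BAT-Mcu-KO mice were at 77.1, 143 and 185 at RT and at 113, 261 and 470 at 4°C, and the lowest 4°C mouse lay among the RT mice. Sqle rose by 1.08 (SE 0.28, limma adjusted p = 0.00294) in control mice and by 0.94 (SE 0.27, limma adjusted p = 0.00632) in BAT-Mcu-KO mice, and passed the test under every alternative tried.

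Of the lanosterol enzymes, Lss closes the sterol rings and Cyp51 removes the first methyl group of lanosterol. Lss was at 410, 451 and 494 in control mice at RT and at 554, 508, 439, 358 and 346 at 4°C, which spread to both sides of the RT range. The BAT-Mcu-KO mice stood at 298, 421 and 484 at RT and at 283, 366 and 448 at 4°C. Its log2 fold changes were -0.05 (interval -0.33 to 0.23) and -0.16 (interval -0.42 to 0.11), the narrowest intervals of the 8 members (limma adjusted p = 0.787 and 0.349).

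Cyp51 was at 206, 244 and 284 in control mice at RT and at 465, 703, 373, 178 and 231 at 4°C, with 2 of 5 cold mice inside or below the RT range. BAT-Mcu-KO mice had values of 180, 225 and 338 at RT and at 217, 350 and 498 at 4°C. Its log2 fold changes of 0.49 (SE 0.25) and 0.55 (SE 0.24) lay close to the threshold (limma adjusted p = 0.118 and 0.0705). The overlapping gene Akap9, at a mean of 607 normalized counts, had log2 fold changes of -0.29 (limma adjusted p = 0.0230) and -0.23 (limma adjusted p = 0.0583). DESeq2 on the recovered reads called Cyp51 in both genotypes (0.65 and 0.58, DESeq2 adjusted p = 0.0237 and 0.0355), and edgeR called it in control mice (0.63, edgeR adjusted p = 0.0435). In the limma fit for control mice the call depended on the mice kept. Without control 4C replicate 4 the log2 fold change was 0.73 (limma adjusted p = 0.0155), without the 6 mice of high muscle marker level it was 0.76 (limma adjusted p = 0.0297), and without the 3 mice with fewer than 9000000 reads, of which 2 were control mice at 4°C, it was 0.01 (limma adjusted p = 0.973). In BAT-Mcu-KO mice Cyp51 passed the test without BAT-Mcu-KO RT replicate 2 (0.66) or BAT-Mcu-KO 4C replicate 4 (0.68), and without control 4C replicate 2 or 4, which leave its log2 fold change at 0.55 and alter only the shared spread (limma adjusted p between 0.0306 and 0.0404 over these 4). It also passed with a replicate block (limma adjusted p = 0.0480), with only the 2 compared groups (limma adjusted p = 0.0316) and without the mice with fewer than 9000000 reads (0.61, limma adjusted p = 0.0180).

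Counts of other cell types moved with temperature beside these genes. The summed normalized count of 6 endothelial markers was 3243 to 4753 in control mice at RT and 5158 to 7991 at 4°C, and 3454 to 4629 and 4792 to 6641 in BAT-Mcu-KO mice. Of these, 2 rose and 2 fell in control mice and 2 rose and 1 fell in BAT-Mcu-KO mice. The sum of 8 macrophage markers was 838 to 1214 at RT and 959 to 1487 at 4°C in control mice and 689 to 1235 and 1222 to 1683 in BAT-Mcu-KO mice, with 2 of 8 and 5 of 8 markers higher. None of the 7 skeletal muscle markers was called. Over all genes 22.3% were higher and 23.7% lower in control mice, and 21.4% and 21.9% in BAT-Mcu-KO mice. The part of these cells in the members' changes was not tested, and in bulk tissue fewer cells of a type and less RNA per cell cannot be told apart.

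The other 15 enzymes described here showed the same mixture. In each genotype 2 were higher at 4°C, 5 were lower and 8 did not pass the test, which is 7 of 15 beside the 46% and 43.3% of all genes. Their median log2 fold change was -0.15 in control mice and -0.18 in BAT-Mcu-KO mice. The enzymes that rose act after lanosterol: Hsd17b7, the sterol ketoreductase, by 1.37 and 1.17, and Msmo1, the methyl sterol oxidase that follows Cyp51, by 0.80 and 0.80.

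Of the 5 enzyme genes that fell, Acat2, the thiolase that starts it, fell by 1.52 in control mice and 1.34 in BAT-Mcu-KO mice, and Mvk, the mevalonate kinase, by 0.72 and 0.65. Among the sterol enzymes Dhcr7, the last reductase of one branch, fell by 1.42 and 1.22, Ebp, the sterol isomerase, by 0.74 and 0.34, and Nsdhl, the dehydrogenase that works with Msmo1, by 0.74 and 0.78. Thus enzymes of the same demethylation complex, Msmo1 and Nsdhl, changed in opposite directions. The call for Nsdhl in control mice was lost without control RT replicate 3 or 4 (-0.66 and -0.70) or without control 4C replicate 4 or 5 (-0.63 and -0.49), and without the 6 mice of high muscle marker level it was lost in both genotypes (-0.51 and -0.63), as was that for Ebp in BAT-Mcu-KO mice (-0.37, limma adjusted p = 0.0615). DESeq2 did not call Nsdhl in control mice (-0.62, DESeq2 adjusted p = 0.0686). Without the mice with fewer than 9000000 reads Msmo1 was at 0.54 in control mice and was not called (limma adjusted p = 0.0993).

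**Figure D2:**
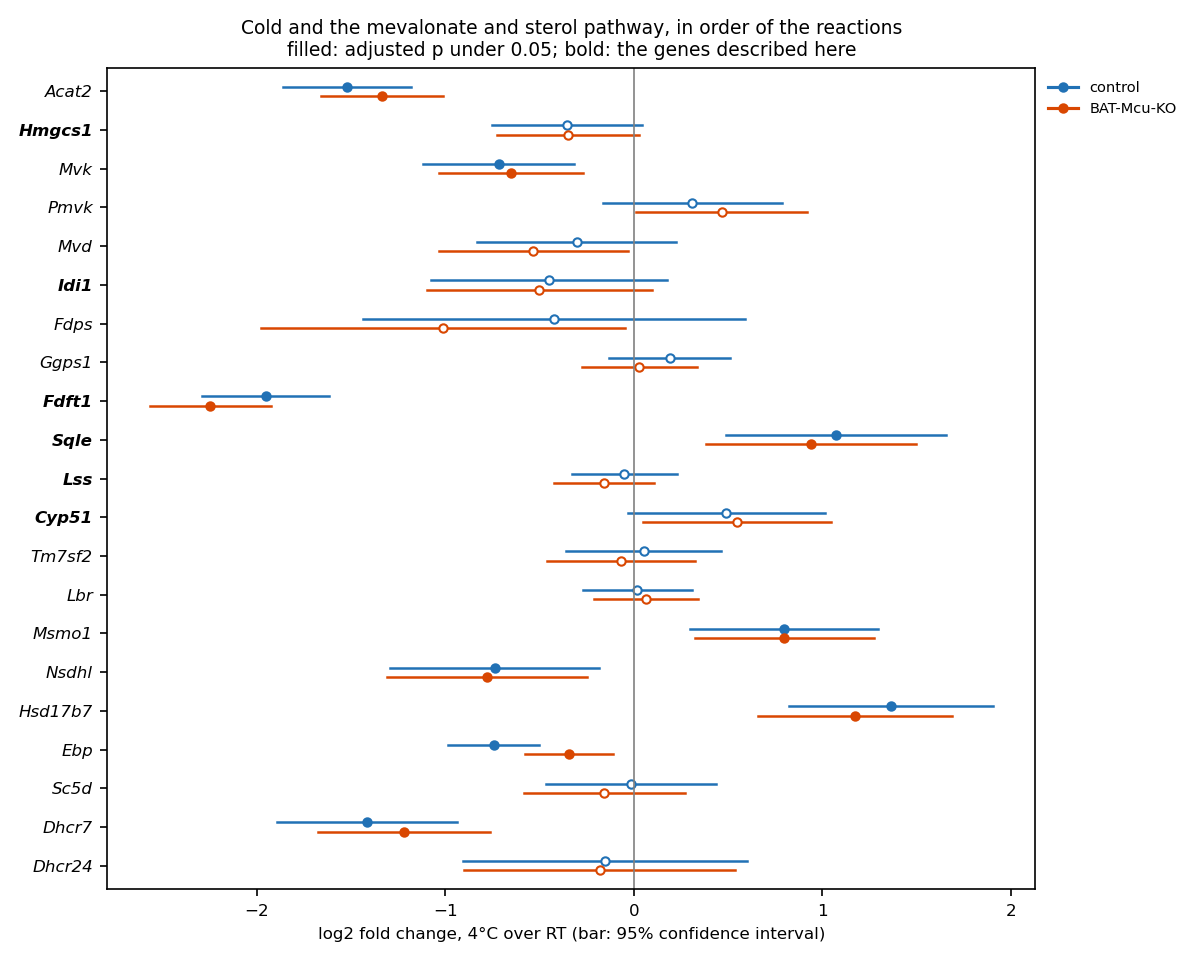
Log2 fold change at 4°C over RT (x axis) of 21 enzyme genes in pathway order (y axis) in control and BAT-Mcu-KO mice; points are limma estimates, filled where adjusted p is under 0.05, and bars are 95% confidence intervals. Sqle, Msmo1 and Hsd17b7 lie to the right of 0 and Acat2, Mvk, Fdft1, Nsdhl, Ebp and Dhcr7 to the left in both genotypes.

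The genes that carry and anchor the SREBPs also differed from one another. Srebf1, which encodes the SREBP forms that drive fatty acid synthesis, was at 1649, 2472 and 2795 normalized counts in control mice at RT and at 307, 407, 398, 251 and 355 at 4°C. The BAT-Mcu-KO mice stood at 1665, 2001 and 2936 at RT and at 259, 346 and 442 at 4°C. Srebf1 thus fell, with log2 fold changes of -2.78 (limma adjusted p = 9.55e-13) and -2.60 (limma adjusted p = 1.32e-12), while its paralog Srebf2 rose in the same mice. Insig2, the paralog of Insig1, was at 400, 420 and 442 in control mice at RT and at 819, 674, 657, 604 and 577 at 4°C, and at 388, 434 and 528 against 716, 789 and 858 in BAT-Mcu-KO mice. The RT and 4°C groups did not overlap, and Insig2 rose by 0.65 (limma adjusted p = 2.39e-06) and 0.83 (limma adjusted p = 3.36e-08).

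**Figure D3:**
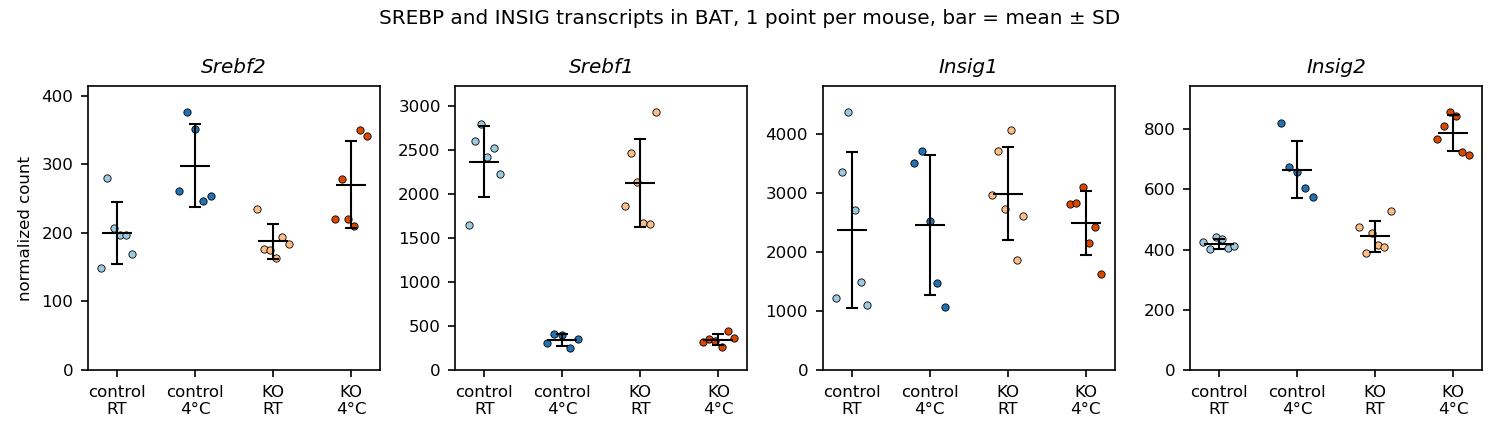
Normalized counts (y axis, linear from 0) of Srebf2, Srebf1, Insig1 and Insig2 in each mouse of the 4 groups; points are mice and bars are the mean ± SD of 5 or 6 mice. Srebf1 at 4°C is below and Insig2 at 4°C above every RT mouse of the same genotype, Srebf2 is higher at 4°C with overlap, and Insig1 spreads over the same range at both temperatures.

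Of all 11 genes for SREBP processing, 3 rose and 4 fell in control mice, and 2 rose and 3 fell in BAT-Mcu-KO mice. The shares of the whole table were 22.3% higher and 23.7% lower in control mice, and 21.4% and 21.9% in BAT-Mcu-KO mice. Besides Insig2 and Srebf1, Mbtps2 (0.47 in control, 0.11 in BAT-Mcu-KO) and Mbtps1 (-0.34 and -0.14), the membrane-bound proteases that release the SREBPs, were called in control mice, while the difference between the genotypes did not pass the test (interaction -0.36 and 0.20, limma adjusted p = 0.850 and 0.855). Rnf139, a ubiquitin ligase of the endoplasmic reticulum, was called in control mice (0.38 and 0.21), and Ubxn8, a protein of the same membrane, in BAT-Mcu-KO mice (0.34), again with no call for the interaction (limma adjusted p = 0.898 and 0.844). Erlin1 (-0.64 and -0.50) and Erlin2 (-0.55 and -0.43), which take part in sterol-dependent protein degradation, fell in both. Scap was at 0.06 and 0.09 and was not called (limma adjusted p = 0.732 and 0.610). The call of Rnf139 in control mice was lost under 75th percentile scaling and quantile normalization (0.27 and 0.27), and Rnf139 was called in BAT-Mcu-KO mice without BAT-Mcu-KO 4C replicate 1 (0.29). Without the 6 mice of high muscle marker level the count in control mice was 4, with Mbtps2 and Rnf139 no longer called (0.51 and 0.28), and Erlin2 was not called in BAT-Mcu-KO mice (-0.36, limma adjusted p = 0.0529). Mbtps2 was also not called without the mice with fewer than 9000000 reads (0.38).

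Of 6 listed uptake and transport targets of SREBP2, 4 were in the table, and 2 fell in both genotypes: Npc1 by 0.80 and 0.70 and Npc2 by 0.52 and 0.44, the pair that moves cholesterol out of lysosomes. Stard4 (0.37 and 0.24) and Tmem97 (-0.40 and -0.43) were not called. Of all genes, 23.7% fell in control mice and 21.9% in BAT-Mcu-KO mice. For LXR, the receptor that senses sterol excess, and for sterol export, 7 genes were measured. Of these, 1 was called in control mice and 2 in BAT-Mcu-KO mice, beside 46% and 43.3% of all genes. The median log2 fold change of the 7 was -0.001 and -0.05. Nr1h2, Abca1, Mylip, Apoe and Lpcat3 were not called in either genotype. Abcg1, a cholesterol exporter, rose by 0.95 and 0.91. Nr1h3, which encodes LXR alpha, rose by 0.33 in BAT-Mcu-KO mice and was at 0.06 in control mice, where the sign turned under 75th percentile scaling (-0.05) and quantile normalization (-0.08). Its rise in BAT-Mcu-KO mice was not called under quantile normalization (0.20) or without the 6 mice of high muscle marker level (0.30).

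Of 11 measured genes for sterol storage and trafficking, 2 rose and 4 fell in both genotypes. The share of all genes called was 46% in control mice and 43.3% in BAT-Mcu-KO mice. Lpl, the lipase that frees fatty acids from circulating lipoproteins, rose by 1.15 and 1.11, and Stard3, an endosomal sterol transporter, by 0.45 and 0.42. Gramd1a, a sterol carrier at membrane contacts, fell by 0.93 and 1.06, and Scarb1, the HDL receptor, by 0.89 and 1.00. Lipa, the lysosomal lipase that hydrolyses cholesteryl esters, fell by 0.73 and 0.40, and Cyp27a1, a mitochondrial sterol hydroxylase, by 0.61 and 0.46.

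The 9 fatty acid targets of SREBP1 were set beside the sterol genes. In control mice 4 fell and 1 rose, and in BAT-Mcu-KO mice 6 fell and none rose. Of all genes, 23.7% fell and 22.3% rose in control mice, and 21.9% fell and 21.4% rose in BAT-Mcu-KO mice. Acss2, which makes acetyl-CoA from acetate, fell by 1.35 in control mice and 1.63 in BAT-Mcu-KO mice, and Acly, which makes it from citrate, by 1.59 and 1.75. Acaca fell by 0.88 and 0.93 and Fasn by 0.73 and 0.68. Fads2 was called in control mice (0.59 and 0.20) and Scd1 in BAT-Mcu-KO mice (-0.56 and -0.65), and neither difference between the genotypes passed the test (limma adjusted p = 0.882 and 0.976 for the interaction). The call of Fasn in BAT-Mcu-KO mice was lost when any 1 of 8 mice was left out (BAT-Mcu-KO RT replicates 1, 2, 3, 4 and 6 and BAT-Mcu-KO 4C replicates 3, 4 and 5, at -0.66 to -0.61), and in control mice also without control RT replicate 3 (-0.66). That of Fads2 was lost under 10 alternatives, among them 75th percentile scaling (0.48), the fit of only the 2 compared groups (0.59), the replicate block (0.55) and 6 single left-out control mice. That of Scd1 was lost without BAT-Mcu-KO RT replicate 2 (-0.56) and without the 6 mice of high muscle marker level (-0.60), and Scd1 was called in control mice under 11 alternatives. Without control 4C replicate 5 the number called in control mice was 1, with Acly at -1.14, Acaca at -0.63 and Fasn at -0.47. Without the 6 mice of high muscle marker level 1 and 2 of the 9 were called. Fasn (-0.42 and -0.46) and Acaca (-0.69 and -0.71) then lost their calls in both genotypes. Acly (-1.03) and Fads2 (0.52) lost theirs in control mice.

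The genotypes were compared next, at RT, at 4°C and as the difference between the cold responses of the 2 genotypes (the interaction). Since control mice had no Cre, loss of Mcu and the Ucp1-Cre transgene cannot be told apart in these comparisons. By limma, 0 of 8 members were called at RT, where 0.0478% of all genes were, 0 of 8 at 4°C, where 0.0751% were, and 0 of 8 in the interaction, where 0% were. At an unadjusted p under 0.05 the counts of members were 0, 0 and 0, and DESeq2 and edgeR also called 0 in each. No member separated the genotypes without overlap, at RT (0.218% of all genes) or at 4°C (0.683%). The smallest limma adjusted p among the members was 0.971 at RT, 0.740 at 4°C and 0.876 in the interaction.

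At RT the largest difference was that of Insig1, 0.48 higher in BAT-Mcu-KO mice on the log2 scale (interval -0.16 to 1.13). At 4°C it was that of Lss, at -0.25 (interval -0.53 to 0.03), with 346 to 554 normalized counts in control and 283 to 448 in BAT-Mcu-KO mice. The genes that changed in the cold gave genotype differences at 4°C of -0.15 for Srebf2 (interval -0.49 to 0.19), -0.19 for Sqle (interval -0.78 to 0.39) and -0.14 for Fdft1 (interval -0.48 to 0.20). The members' intervals together reached from -0.62 to 1.13 at RT, from -0.78 to 0.82 at 4°C and from -1.27 to 0.81 in the interaction. These bounds were set by the most variable genes, and each gene has its own interval. The smallest difference that would pass the test for each gene was not tested. The interaction of Fdft1, whose cold response was the largest, was -0.29 (interval -0.76 to 0.17).

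**Figure D4:**
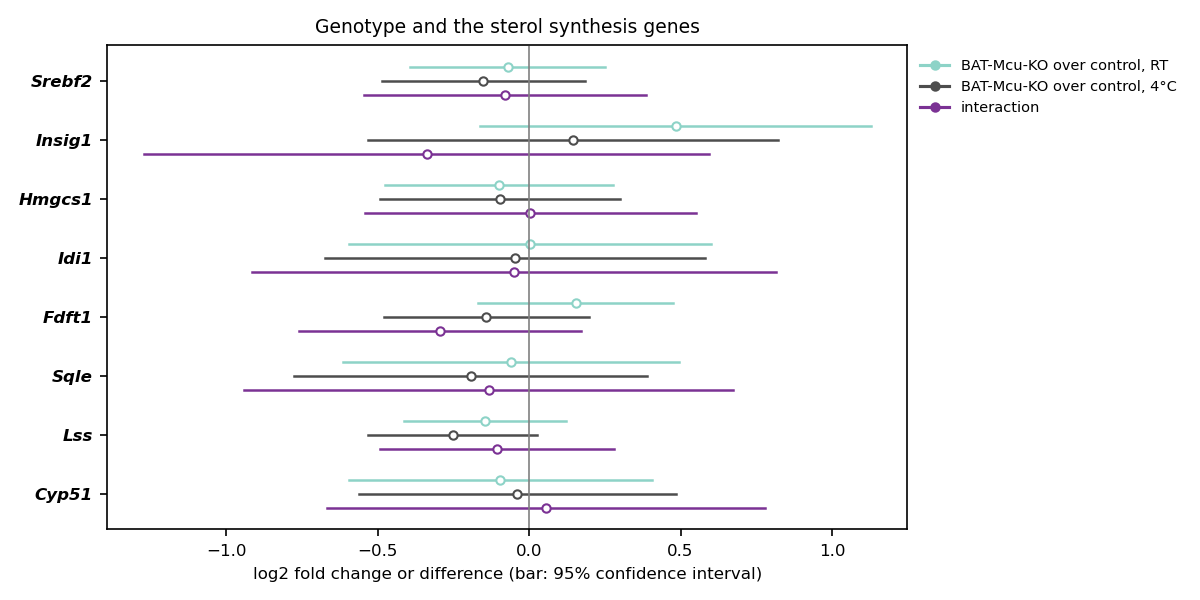
Log2 difference (x axis) between BAT-Mcu-KO and control mice at RT and at 4°C, and the difference between the cold responses (interaction), for the 8 members (y axis); points are limma estimates, open because none passed adjusted p under 0.05, and bars are 95% confidence intervals. Every interval crosses 0, and those of Insig1 are the widest and those of Lss the narrowest.

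The members varied together between mice of the same group. After the mean of its group was taken from each mouse on the log2 scale, all 28 pairs of members had a positive Pearson r over the 23 mice, with a median of 0.50. The highest was 0.79 for Sqle and Idi1, followed by 0.73 for Lss and Cyp51, and the lowest was 0.03 for Hmgcs1 and Fdft1. Sqle and Fdft1, which went in opposite directions in the cold, had an r of 0.47 within groups. The values of a mouse share a tissue piece, a library and a size factor, so these correlations are given as a description. With the mean of the 8 standardized members, the r was -0.37 for log2 reads, -0.35 for the mitochondrial share and 0.03 for the log2 sum of muscle markers. Of the other markers, endothelial Pecam1 was at -0.73 and Cdh5 at -0.52, with 5 of 6 endothelial markers negative. The 7 brown adipocyte markers ranged from -0.45 for Adipoq to 0.33 for Elovl3, with a median of -0.08 and 2 positive. The part of these in the shared variation was not tested.

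Single mice carried much of this variation. The mean standardized deviation was highest in control 4C replicate 2 (1.58), which had the highest Sqle, Cyp51, Fdft1, Hmgcs1, Insig1, Idi1 and Srebf2 of the 5 control mice at 4°C. BAT-Mcu-KO 4C replicate 5 (1.13) and control RT replicate 2 (0.88) followed. It was lowest in control 4C replicate 4 (-1.20), BAT-Mcu-KO 4C replicate 4 (-1.19) and control 4C replicate 5 (-1.15). The 2 highest and the 3 lowest of the 23 mice were thus from the cold groups.

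**Figure D5:**
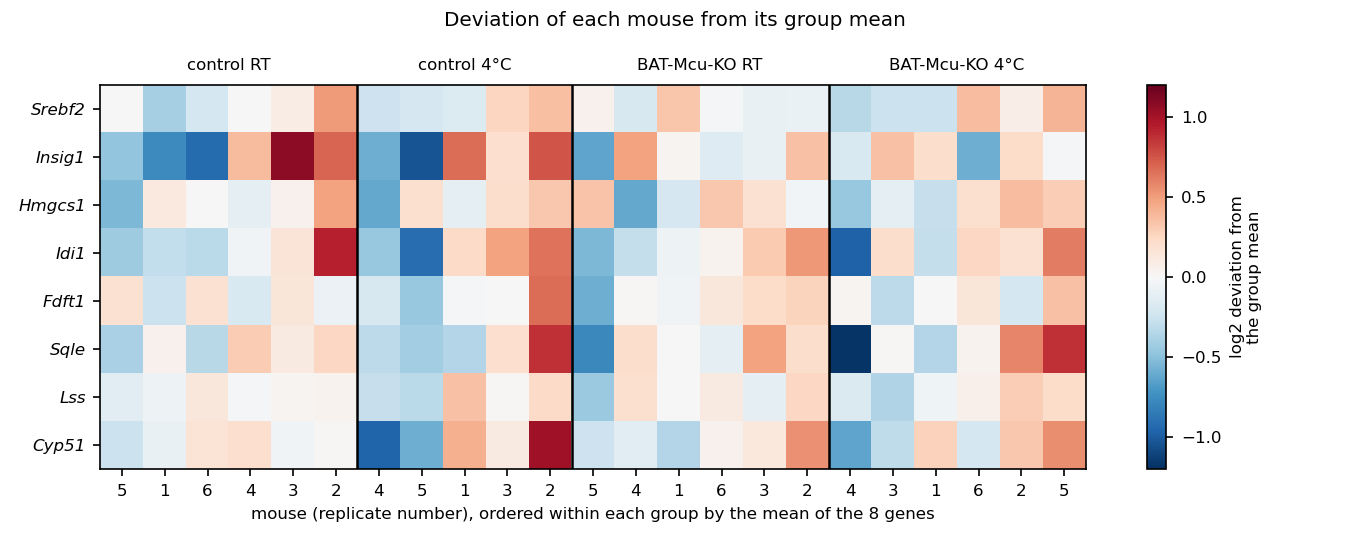
Log2 deviation of each mouse from its group mean (colour, red above and blue below) for the 8 members (y axis) in the 23 mice (x axis, replicate number), ordered within each group by the mean over the members. Columns tend to be red or blue from top to bottom, as in control 4C replicates 2 and 4.

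Among the 14624 other genes with a value, those with the highest r with the mean of the members were Napepld (0.90), Nadk (0.88), Pcyt2 (0.88), Derl1 (0.87) and Nsdhl (0.86). Napepld encodes a phospholipase, Nadk the kinase that makes NADP, Pcyt2 an enzyme of phosphatidylethanolamine synthesis and Derl1 a protein of endoplasmic reticulum degradation. The other 15 enzymes of the pathway had a median r of 0.67, with 12 positive, and the 9 SREBP1 targets one of 0.68, with 8 positive. Over all 14624 genes the median was -0.01, with 7207 positive. Msmo1 (0.85) and Acat2 (0.80) were high, and so were Dhcr7 (0.79), Fdps (0.78) and Srebf1 (0.70), whereas Ebp stood at -0.47. Storage and trafficking genes had a median of -0.22, with 2 of 11 positive.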

How the data were processed

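Libraries were made from BAT RNA after the Smart-seq2 protocol. Per the labels and the study's methods, reads were aligned with STAR (2.4.0j) to mm10 and exonic reads were counted with HTSeq irrespective of strand. The authors deposited DESeq2-normalized counts, a signal of reads divided by a size factor per library, which came out as whole reads for 100% of values (tolerance 0.1 read). Library totals differed up to 2.95-fold. A second deposited table holds the authors' fold changes and p-values and was not used.

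All 14651 genes were fitted with limma (3.58.1, R 4.3.3) on log2(value + 1), with 4 group means over 23 mice and a trend on expression. The contrasts were cold within genotype, genotype within temperature and the interaction. DESeq2 (1.42.0) and edgeR (4.0.16) on the recovered reads, other pseudocounts, filters, scalings and left-out mice were alternatives. Replicates of a group differed beyond sampling noise (chi-square per degree of freedom 8.88 to 63.8 over 55 pairs). The fit was tested on simulated data.

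The members and all gene lists were chosen with earlier results of these data known. The 8 members are described in full; of other lists, genes called by cold, at most 6 by the size of the change in control mice, plus any that make up a count of 5 or fewer; and the 5 genes most like the members. Of the listed genes, 2 are not reported here. The labels of 19 rows were symbols turned into dates.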

Additional observations from a re-analysis of the deposited data

Results flagged for a closer look

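By Dixon's test 1 value stood apart from its group, among 32 combinations of a member and a group, where chance gives about 1 in 20. Idi1 was at 86.3 normalized counts in control RT replicate 2, while the other 5 control mice at RT lay between 33.1 and 50.02 normalized counts. The same mouse had a mean standardized deviation of the 8 members of 0.88.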

How the results depend on the processing

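All 8 members kept the call or lack of one for genotype and interaction under every alternative run, and Fdft1, Sqle and, in control mice, Srebf2 kept theirs in the cold. The number of members called in the cold was 3 to 4 in control and 2 to 4 in BAT-Mcu-KO mice. With any single mouse left out it was 3 to 4 in both, and the other 15 enzymes gave 6 to 7 and 7 to 9. The replicate numbers of the labels did not pair the mice (mean r of same-numbered mice -0.10 to 0.12), so the fit with a replicate block shows only how calls move. It called 3, 4, 0, 0 and 0 members for the cold response of control and of BAT-Mcu-KO mice, genotype at RT, genotype at 4°C and interaction, with 6610, 6376, 7, 7 and 0 of all genes. The 2 sets of left-out mice, of high muscle marker level (muscle-marked) and with fewer than 9000000 reads (shallow), were chosen after seeing the data.

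Over all genes, the genotype count at RT was 7, and 3 with only the 2 compared groups, 20 with DESeq2 and 4 without the muscle-marked mice. At 4°C it was 11, and 7 without the trend, 2 with the 2 groups, 27 with DESeq2, 6 with edgeR, 1 without the muscle-marked mice, 4 without the shallow mice and 3 to 16 with a mouse left out. The interaction count was 0, with 28 by DESeq2 and 0 to 1 with a mouse left out. Counts of SREBP processing genes for cold in control were 4 without the muscle-marked mice. Those of LXR and export were 2 under 75th percentile scaling, quantile normalization or without the shallow mice in control, and 1 without the muscle-marked mice in BAT-Mcu-KO. Those of the SREBP1 targets without the muscle-marked mice were 1 and 2, and 1 to 7 in control and 4 to 7 in BAT-Mcu-KO mice with a mouse left out. The cause of these shifts was not tested.

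Log2 values without a call changed sign as follows. Under 75th percentile scaling and quantile normalization, Insig1 for cold in control was -0.0193 and -0.0866, Idi1 for genotype at RT -0.0238 and -0.0324, and Nr1h3 for cold in control -0.0529 and -0.0796, and Idi1 in the interaction was 0.0054 under the first. With DESeq2 and edgeR, Hmgcs1 in the interaction was -0.0052 and -0.0055, Idi1 for genotype at RT -0.0392 and -0.0407, and Cyp51 in the interaction -0.0663 and -0.0516. With the replicate block, Hmgcs1 in the interaction was -0.0304 and Insig1 for cold in control -0.0208. Without the muscle-marked mice, genotype at RT was 0.0306 for Srebf2 and -0.0206 for Idi1, genotype at 4°C was -0.29 for Insig1, the interaction was -0.0822 for Hmgcs1, 0.13 for Sqle and -0.19 for Cyp51, and Lss for cold in control was 0.13. Without the shallow mice, genotype at 4°C was 0.20 for Idi1, 0.14 for Fdft1, 0.0138 for Lss and 0.50 for Cyp51, the interaction was 0.0362 for Srebf2, 0.0383 for Sqle, 0.0654 for Insig1, 0.20 for Idi1 and 0.16 for Lss, and Insig1 for cold in control was -0.38.

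With a mouse left out, genotype at RT ranged from -0.15 to 0.0313 for Srebf2, -0.21 to 0.0242 for Hmgcs1, -0.16 to 0.10 for Sqle and -0.10 to 0.19 for Idi1. Genotype at 4°C ranged from -0.37 to 0.0421 for Sqle, -0.11 to 0.33 for Insig1, -0.27 to 0.15 for Idi1, -0.26 to 0.0266 for Fdft1 and -0.28 to 0.22 for Cyp51. The interaction ranged from -0.18 to 0.0102 for Srebf2, -0.15 to 0.11 for Hmgcs1, -0.31 to 0.10 for Sqle, -0.28 to 0.14 for Idi1 and -0.18 to 0.31 for Cyp51. Cold in control ranged from -0.10 to 0.35 for Insig1 and -0.14 to 0.0304 for Lss. Idi1 had no value under a minimum mean of 50 normalized counts, and the interaction could not be fitted with 2 groups.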
